A study of Mus musculus with 2 samples.

Results

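Axon guidance genes encode the secreted and membrane-bound cues that steer growing axons and migrating neural cells, and the receptors that read them. The members described here are the ephrins with their Eph receptors, the semaphorins with plexins and neuropilins, the Slits with Robos, and the netrins with Unc5 receptors, Dcc and Neo1. They were taken by symbol from an expression table of mouse neural stem cells, and 70 of its 17359 genes matched, 35 ligands and 35 receptors. The RNA came from neural stem cells, which renew themselves and produce the neurons and glia of the brain, transfected with a scrambled siRNA (siSCR, labelled as the control genotype, 1 library) or with an siRNA against Chd4 (siChd4, labelled as Chd4 knockdown, 1 library). Chd4 is the motor subunit of NuRD, a complex that slides nucleosomes and removes histone acetylation. The series is titled for the nucleoporin Seh1 in neurogenesis, and its design text names only this pair of siRNA treatments. The sources used here do not give the strain or age of the mice, how the culture was derived or when cells were harvested.

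In ephrin signalling both partners sit in membranes, so cells must touch, and the Eph receptor tyrosine kinases usually cause the contacting growth cone to retract. Semaphorins are secreted (class 3) or held in the membrane (classes 4 to 7), and act through plexins, with neuropilins as the ligand-binding partner for most of class 3. Slits repel through Robos, while netrins attract through Dcc and repel through Unc5. In the developing brain the same molecules also guide radial glial scaffolds, migrating neuroblasts and oligodendrocyte precursors.

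With 1 library per group no test between the treatments was possible, and every difference below is between these libraries. Values are TPM, a length-corrected abundance that can be compared between genes, and each fold is a ratio of TPM, siChd4 over siSCR, with a 95% counting interval in parentheses. That interval covers counting error only and says nothing of the spread between cultures. A log2 ratio is on TPM plus 1, which understates differences of low genes, and a gene is called higher or lower when this ratio passes 1.5-fold. In bulk RNA, fewer cells of a type and less RNA per cell cannot be told apart. The libraries held 19816811 (siSCR) and 20072009 (siChd4) estimated counts. Chd4 itself measured 250 TPM in siSCR and 203 TPM in siChd4, a fold of 0.815 (0.795 to 0.837) and a log2 ratio of -0.29, so the target was lower by a small amount. Many other genes were lower by more. Of genes with a mean of at least 1 TPM, 17.4% had a log2 ratio below -0.317, the value of Sema4b.

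Guidance genes were more often higher than lower in the siChd4 library. Of the 70 members, 59 had a mean of at least 1 TPM and 11 did not. Among the 59, 14 were at least 1.5-fold higher (23.7%, where the share over the 12882 genes of that level was 6.75%) and 1 was lower (1.69%, against 4.47% of all genes). At a 2-fold limit 4 were higher (2.26% of all genes passed) and 0 lower (0.629%). The median log2 ratio was 0.19 over the 59 members and -0.04 over all genes, and with all 70 members kept it was 0.17. Sema3b passed the level filter only through the library in which it was high, and was the 1 member to do so. Counting intervals lay above 1 for 28 members, below 1 for 13 and included 1 for 18. Over the 12882 genes of that level, they lay above 1 for 3228, below 1 for 4399 and included 1 for 5246. The few genes left over had no interval.

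The 14 higher members were Sema3b, Sema6b, Plxnb3, Sema7a, Dcc, Sema6c, Efnb3, Efna3, Plxnd1, Efna1, Sema4g, Epha10, Plxnb1 and Unc5d, and the lower one was Robo1. The higher members came from 5 of the 6 families, all but Slits and Robos. On FPKM values, Efna1 (0.49), Epha10 (0.43), Unc5d (0.47) and Robo1 (-0.58) were no longer past the limit. The family medians of the log2 ratio were 0.35 for semaphorins (17 members at that level), 0.31 for ephrins (7), 0.24 for plexins and neuropilins (11), 0.13 for Eph receptors (11), 0.002 for netrins and their receptors (9) and -0.16 for Slits and Robos (4). The sign of the Slit and Robo median turned, to 0.02, when the trend of the ratio with transcript length was subtracted. The levels of all 70 members summed to 1322 TPM in siSCR and 1378 TPM in siChd4, or 0.132% and 0.138% of the transcripts.

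**Figure D1:**
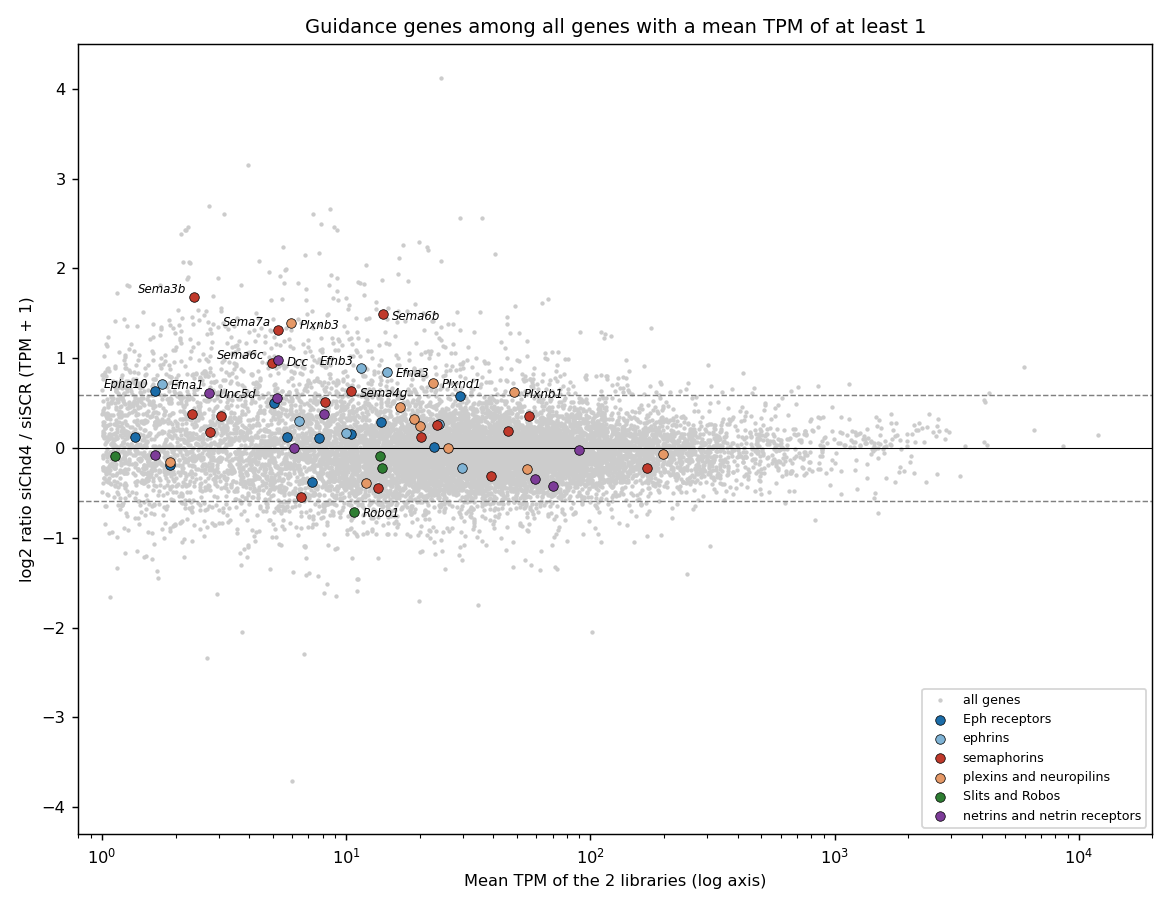
Log2 of the siChd4 to siSCR ratio of TPM plus 1 (vertical) against the mean TPM of both libraries (horizontal, log axis), with each gene of at least 1 TPM as a grey point and the 59 guidance genes coloured by family. Dashed lines mark 1.5-fold, the 15 named members lie past them, and 14 of these are on the upper side.

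The higher members were mostly of low to moderate level. Of the 13 members with a mean of 1 to 5 TPM, 5 were higher (38.5%, against 16.9% of all genes at this level). Of the 28 between 5 and 20 TPM, 7 were higher (25.0% against 9.51%) and 1 lower (3.57% against 6.60%). Of the 18 at 20 TPM or more, 2 were higher, Plxnd1 and Plxnb1 (11.1% against 3.01%). In siSCR, 11 of the 14 higher members lay below 10 TPM, and the range was 0.60 to 38.2 TPM. A low siSCR level is partly built into this call, since siSCR is the denominator of the ratio. The members as a whole were also low, with a median of 10.8 for the mean TPM of the 59.

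Markers of the labelled and of other cell types were read in the same libraries. Of all genes with at least 1 TPM, 6.75% were higher and 4.47% lower. All 11 neural stem and radial glia markers had at least 1 TPM, from Prom1 at 8.37 TPM in siSCR and 4.72 TPM in siChd4 to Fabp7 at 6105 and 7004 TPM, and 10 of 11 differed by less than 1.5-fold, with Prom1 lower. Of 13 neuron markers with at least 1 TPM (14 listed), 7 were higher and 0 lower, and the list summed to 807 TPM in siSCR and 1119 TPM in siChd4. Of 11 oligodendrocyte lineage markers at that level (14 listed), 7 were higher and 0 lower, with sums of 2910 and 3027 TPM, most of it Olig1 and Olig2, while Mog, of mature myelin, was at 0.09 and 0.07 TPM. Gpr17, 1 of the 7, passed the level filter only through siChd4 (0.27 TPM in siSCR and 2.27 TPM in siChd4). Astrocyte markers had 0 higher and 2 lower of 8, with sums of 1997 and 1649 TPM, most of it Slc1a3 at 1254 and 878 TPM. Ratios were above 0 for 3 of the 8, among them Aldh1l1 at 309 and 421 TPM, and below 0 for 5. Endothelial and pericyte markers summed to 3.65 and 5.28 TPM, with 0 of 2 at that level past the limit. Fibroblast and smooth muscle markers summed to 10.6 and 18.8 TPM, with 2 of 3 higher and with Dcn and Lum at 0 in siSCR. Col1a1, 1 of the 2 higher, passed the level filter only through siChd4 (0.64 TPM in siSCR and 1.96 TPM in siChd4). Microglia and macrophage markers summed to 9.53 and 39.7 TPM, with 1 of 2 at that level higher, P2ry12 at 6.84 and 36.1 TPM, with Cd68 at 2.34 and 2.91 TPM, and with Aif1 at 0 in siSCR. P2ry12 made up most of the difference between these sums. Cx3cr1, Csf1r, Itgam and Ptprc lay at 0.19 TPM or less in both libraries, and Ptprc was at 0.11 TPM in siSCR and 0.05 TPM in siChd4. The part of these markers in the guidance gene differences was not tested.

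Semaphorins held 3 of the 4 members past 2-fold. Sema3b, a secreted semaphorin known as a tumour suppressor gene and as a cue for commissural axons, measured 0.60 TPM in siSCR and 4.15 TPM in siChd4, a fold of 6.92 (4.07 to 12.6) from 16.0 and 105 estimated counts. It was low in both libraries, and lower in siSCR. Sema6b, a transmembrane ligand of A-type plexins, measured 6.98 TPM in siSCR and 21.4 TPM in siChd4, a fold of 3.07 (2.62 to 3.61) from 204 and 657 estimated counts. Sema7a, the semaphorin tethered to the membrane by a lipid anchor, which promotes axon growth, measured 2.58 TPM in siSCR and 7.92 TPM in siChd4 (3.07-fold, 2.27 to 4.21). These 3 had the highest log2 ratios of the family, 1.69, 1.49 and 1.32. Over all genes, 0.442% had a ratio above that of Sema3b, 0.675% above Sema6b and 1.09% above Sema7a.

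The windows before the start sites of Sema6b, Sema7a and Plxnb3, which passed 2-fold, are shown beside that of Robo1 to set higher members next to the lower one. Sema3b also passed 2-fold, but its window is not among those shown. The sequences are the 250 bases before the start of the gene in RefSeq, build GRCm38.p6, which differs from the mm39 build of the expression table. Each is written 5′ to 3′ on the strand of the gene, with capitals for each GC box, the motif GGGCGG or its reverse complement CCGCCC that Sp factors bind (matches of different motifs may overlap). The window of Sema6b lies at chr17:56140344-56140593 (minus strand), that of Sema7a at chr9:57939862-57940111 (plus), that of Plxnb3 at chrX:73756853-73757102 (plus) and that of Robo1 at chr16:72662899-72663148 (plus).
Sema6b: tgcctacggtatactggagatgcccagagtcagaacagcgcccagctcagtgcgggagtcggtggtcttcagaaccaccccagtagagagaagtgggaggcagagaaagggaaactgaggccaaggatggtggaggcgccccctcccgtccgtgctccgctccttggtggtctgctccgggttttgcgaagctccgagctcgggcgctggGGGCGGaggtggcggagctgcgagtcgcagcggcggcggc
Sema7a: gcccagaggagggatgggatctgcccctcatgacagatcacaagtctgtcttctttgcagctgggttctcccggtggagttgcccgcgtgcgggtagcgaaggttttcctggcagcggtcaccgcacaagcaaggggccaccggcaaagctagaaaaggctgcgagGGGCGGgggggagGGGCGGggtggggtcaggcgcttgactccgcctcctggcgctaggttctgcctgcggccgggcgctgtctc
Plxnb3: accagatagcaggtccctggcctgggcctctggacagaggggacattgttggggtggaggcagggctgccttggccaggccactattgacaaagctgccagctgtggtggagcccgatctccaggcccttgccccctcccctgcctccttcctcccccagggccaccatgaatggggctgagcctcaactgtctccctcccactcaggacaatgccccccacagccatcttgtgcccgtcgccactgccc
Robo1: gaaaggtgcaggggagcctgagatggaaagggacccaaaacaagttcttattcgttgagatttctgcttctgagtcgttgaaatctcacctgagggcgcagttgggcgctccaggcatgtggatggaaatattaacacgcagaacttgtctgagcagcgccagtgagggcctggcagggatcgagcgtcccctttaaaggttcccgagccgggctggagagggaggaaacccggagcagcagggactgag

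The windows were not alike. The Sema6b window had 1 GC box and 20 CpG sites, at 66.0% GC. That of Sema7a had 2 GC boxes and 17 CpG sites (66.4% GC). The Plxnb3 window was as rich in G and C (65.2%) but held 3 CpG sites and 0 GC boxes, a CpG count of 0.12 times that expected from its base composition, against 0.76 for Sema6b and 0.63 for Sema7a. Robo1 had 56.0% GC, 11 CpG sites and 0 GC boxes. The E-box CANNTG, the site of proneural and other basic helix-loop-helix factors, occurred 0 times before Sema6b, 1 time before Sema7a, 2 times before Plxnb3 and 3 times before Robo1. The TATA box TATAAA, searched on both strands, was in none of these 4 windows. Entries of 1 chromosome were left out of all the sets counted here, so members on it are among those without an entry used. Of the 70 members, 60 had an entry that was used, and a GC box was in 73.3% of these. By call, it was in 9 of the 10 used windows of higher members and in 28 of 38 of members within the limit. The windows shown above therefore do not stand for either group. It was in 60.0% of the 10330 entries used of genes with at least 1 TPM and in 32.9% of all 27025 entries used. An E-box was in 45.0% of the members' windows (56.2% and 66.0% in the same sets) and a TATA box in 3.33% (5.91% and 13.0%). The median GC content was 64.8% for members and 60.4% for genes of that level. A match is only a match of letters and does not show that a factor binds.

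Secreted class 3 semaphorins otherwise differed by less than the limit. All 5 members at that level had a ratio above 0, where 44.5% of all genes did. Sema3c, a cue for cortical and cardiac cell migration, measured 6.53 TPM in siSCR and 9.78 TPM in siChd4 (1.498-fold, 1.28 to 1.76), and Sema3e, the ligand of plexin D1, 2.58 TPM in siSCR and 3.57 TPM in siChd4 (1.38-fold, 1.11 to 1.73). For Sema3a, the classic growth cone collapsing factor, the values were 19.4 TPM in siSCR and 21.1 TPM in siChd4, and for Sema3f, the neuropilin-2 ligand, 2.52 TPM in siSCR and 2.99 TPM in siChd4. The intervals of both included 1, 0.995 to 1.19 and 0.833 to 1.67. Under the level filter, Sema3d measured 0.39 TPM in siSCR and 0.66 TPM in siChd4 and Sema3g 0.09 TPM in siSCR and 0.56 TPM in siChd4, from 3 and 19.0 estimated counts for the latter (6.22-fold, 1.83 to 32.9).

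Membrane-bound classes went both ways. In class 4, Sema4g was higher at 7.98 TPM in siSCR and 12.9 TPM in siChd4 (1.62-fold, 1.39 to 1.89). Sema4d, the plexin B1 ligand that also acts on immune cells and oligodendrocytes, was the member just short of the limit on the lower side, at 7.92 TPM in siSCR and 5.13 TPM in siChd4, a fold of 0.648 (0.535 to 0.781) and a log2 ratio of -0.54. Sema4b, the most abundant of the class, measured 43.6 TPM in siSCR and 34.8 TPM in siChd4 (0.798-fold, 0.736 to 0.865), and Sema4c, a plexin B2 ligand, 21.5 TPM in siSCR and 25.8 TPM in siChd4 (1.201-fold, 1.09 to 1.33). Sema4a had 1.90 TPM in siSCR and 2.77 TPM in siChd4 (1.46-fold, 0.9996 to 2.11) and Sema4f, under the filter, 0.69 TPM in siSCR and 0.40 TPM in siChd4. So Sema4b and Sema4d were below their siSCR level beyond counting error, while Sema4c and Sema4g were above it.

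The class 5 pair split too. Sema5a, which has thrombospondin repeats and can attract or repel, measured 15.8 TPM in siSCR and 11.3 TPM in siChd4 (0.715-fold, 0.658 to 0.777), and its paralog Sema5b 49.2 TPM in siSCR and 63.3 TPM in siChd4 (1.29-fold, 1.21 to 1.37). In class 6, Sema6c was higher, at 3.06 TPM in siSCR and 6.83 TPM in siChd4 (2.23-fold, 1.74 to 2.87), next to Sema6b above. Sema6a measured 42.8 TPM in siSCR and 49.0 TPM in siChd4 (1.14-fold, 1.08 to 1.21). Sema6d, a plexin A1 ligand and the most abundant semaphorin of these cells, measured 183 TPM in siSCR and 157 TPM in siChd4, a fold of 0.856 (0.830 to 0.882). The 2 class 6 members past the limit were the 2 with the lowest level, and the summed class stood at 236 TPM in siSCR and 234 TPM in siChd4.

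**Figure D2:**
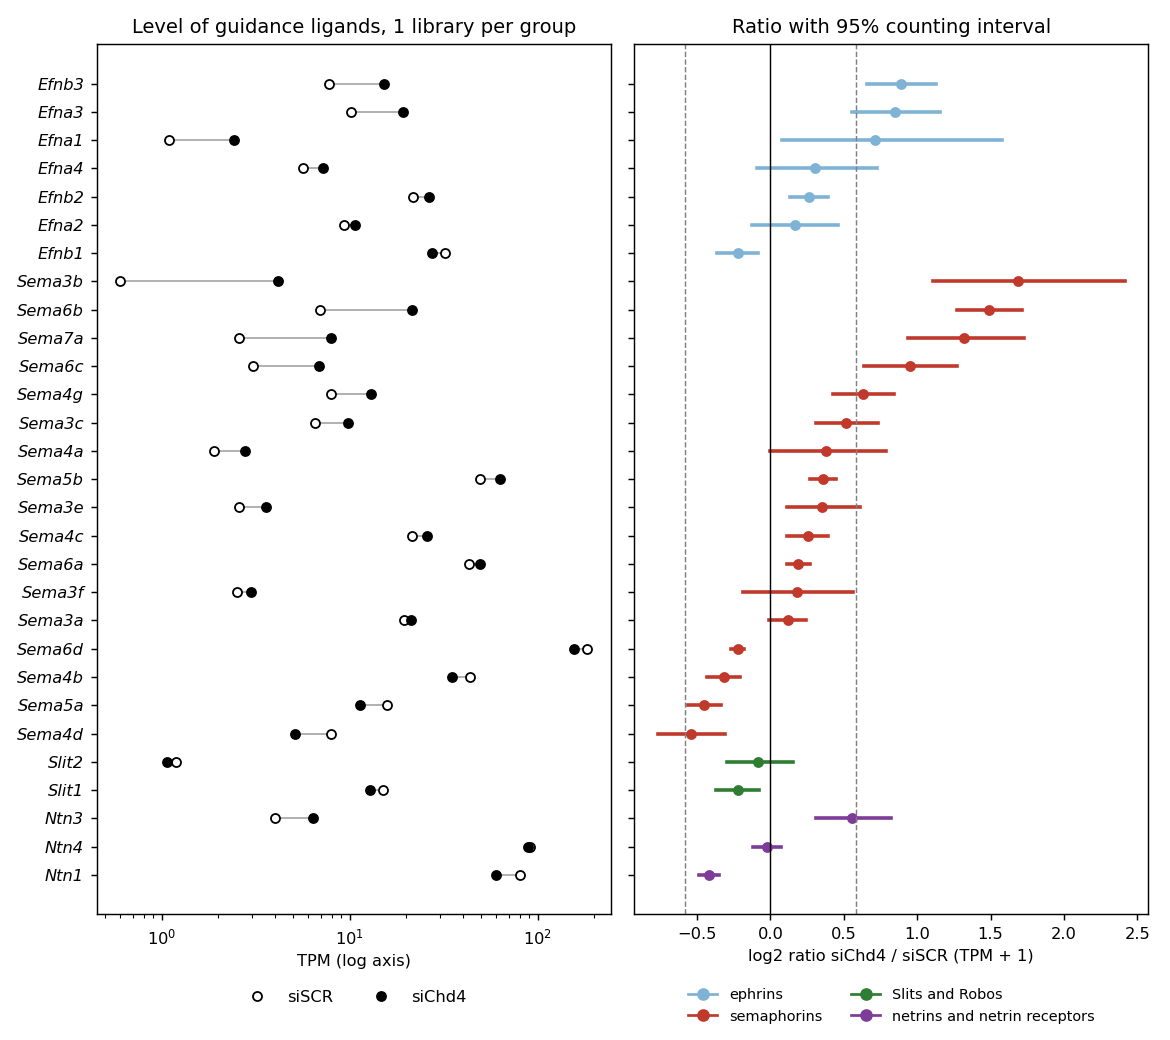
Left, TPM of each guidance ligand with a mean of at least 1 TPM in siSCR (open circle) and siChd4 (filled circle), 1 library each, on a log axis; right, its log2 ratio on TPM plus 1 with the 95% counting interval, dashed lines at 1.5-fold. Of the 29 ligands, 8 lie past the upper line and 0 past the lower, with Sema3b, Sema6b and Sema7a furthest out. Of all genes of that level, 6.75% were higher and 4.47% lower.

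Of the 11 plexins and neuropilins, 3 were higher (27.3%, against 6.75% of all genes), Plxnb3, Plxnb1 and Plxnd1, and 0 lower (4.47% of all genes). Plxnb3, which binds Sema5a and in the brain is typical of oligodendrocytes, measured 2.82 TPM in siSCR and 9.02 TPM in siChd4, a fold of 3.20 (2.60 to 3.97) from 119 and 380 estimated counts, and 0.885% of all genes had a higher log2 ratio. Plxnb1, the Sema4d receptor, measured 38.2 TPM in siSCR and 59.3 TPM in siChd4 (1.55-fold, 1.48 to 1.63), so receptor and ligand lay on opposite sides of their siSCR level. Plxnb2, which supports the proliferation and migration of neural progenitors and was the most abundant of all 70 members, measured 202 TPM in siSCR and 192 TPM in siChd4, a fold of 0.953 (0.927 to 0.980), and its log2 ratio of -0.07 became 0.09 with the length trend subtracted. Plxnd1, the Sema3e receptor, measured 16.8 TPM in siSCR and 28.5 TPM in siChd4 (1.70-fold, 1.56 to 1.84). Of these 4 receptors the most abundant was the most even.

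The A plexins, which pair with neuropilins for class 3 semaphorins and bind class 6 directly, had 0 of 4 members past the limit. Plxna3 measured 13.9 TPM in siSCR and 19.3 TPM in siChd4 (1.39-fold, 1.27 to 1.54) and was the member of this class above its siSCR level. Plxna1, the most abundant, measured 59.2 TPM in siSCR and 50.2 TPM in siChd4 (0.848-fold, 0.812 to 0.887). Plxna2 had 26.1 TPM in siSCR and 26.0 TPM in siChd4 and Plxna4 2.05 TPM in siSCR and 1.74 TPM in siChd4, with intervals that included 1 (0.940 to 1.06 and 0.690 to 1.04). Plxnc1, the Sema7a receptor, measured 16.8 TPM in siSCR and 21.2 TPM in siChd4 (1.26-fold, 1.16 to 1.37), the same direction as its ligand at a smaller size. The neuropilins differed in direction. Nrp1, the Sema3a and VEGF co-receptor, measured 13.8 TPM in siSCR and 10.3 TPM in siChd4 (0.748-fold, 0.663 to 0.841), and Nrp2, which prefers Sema3f, 18.2 TPM in siSCR and 21.7 TPM in siChd4 (1.19-fold, 1.09 to 1.30).

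Of the 7 ephrins with at least 1 TPM, 3 were higher (42.9%, against 6.75% of all genes) and 0 lower (4.47% of all genes). Ratios were above 0 for 6 of them (85.7%, against 44.5% of all genes). Ephrin-A genes encode lipid-anchored ligands, and all 4 at that level had ratios above 0. Efna3 measured 10.1 TPM in siSCR and 19.1 TPM in siChd4, a fold of 1.89 (1.52 to 2.35) from 131 and 237 estimated counts. Efna1 measured 1.09 TPM in siSCR and 2.43 TPM in siChd4 (2.23-fold, 1.10 to 4.80) from only 12 and 29.0 estimated counts, so its interval was wide. The intervals of Efna4, 5.65 TPM in siSCR and 7.22 TPM in siChd4 (1.28-fold, 0.926 to 1.77), and Efna2, 9.32 TPM in siSCR and 10.6 TPM in siChd4 (1.14-fold, 0.909 to 1.41), included 1. Efna5, under the filter, measured 0.84 TPM in siSCR and 0.97 TPM in siChd4. Efna1, Efna3 and Efna4 are next to each other in the RefSeq gene order with 0 protein-coding genes between them, and their log2 ratios were 0.72, 0.85 and 0.31.

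Ephrin-B genes encode transmembrane ligands that can signal back into the cell that carries them. Efnb3, the midline ligand that keeps corticospinal axons from recrossing, measured 7.73 TPM in siSCR and 15.2 TPM in siChd4, a fold of 1.96 (1.65 to 2.34) from 194 and 401 estimated counts. Efnb2, known from vessels and neural progenitors, measured 21.7 TPM in siSCR and 26.2 TPM in siChd4 (1.21-fold, 1.10 to 1.33). Efnb1, which helps keep cortical progenitors in their niche, was below its siSCR level at 32.2 TPM in siSCR and 27.4 TPM in siChd4 (0.852-fold, 0.771 to 0.941). Efnb1 was also the most abundant ephrin, and the 3 past the limit lay at 1.09 to 10.1 TPM in siSCR.

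Of 11 Eph receptors at that level, 1 was higher (9.09%, near the 6.75% of all genes) and 0 lower. The higher one was Epha10, a receptor that lacks kinase activity, at 1.08 TPM in siSCR and 2.22 TPM in siChd4 (2.06-fold, 1.30 to 3.35) from 29.3 and 58.4 estimated counts. Epha5, a receptor for ephrin-A ligands in topographic mapping, was the member just outside the limit on the upper side, at 23.1 TPM in siSCR and 35.1 TPM in siChd4, a fold of 1.52 (1.40 to 1.65) and a log2 ratio of 0.58, where the member just inside was Unc5d at 0.62. Epha5 was the most abundant Eph receptor in siChd4, and its many counts made the interval narrow. Its log2 ratio was past the limit with a pseudocount of 0.1 (0.60), on FPKM (0.61) and on TMM-scaled CPM (0.64). Epha10 was not past it on FPKM (0.43), so the count of higher Eph receptors depends on the setting. Epha4, which binds both ephrin classes, went the other way at 8.32 TPM in siSCR and 6.16 TPM in siChd4 (0.740-fold, 0.637 to 0.858). Epha2 measured 9.82 TPM in siSCR and 11.1 TPM in siChd4, Epha3 1.27 TPM in siSCR and 1.47 TPM in siChd4 and Epha7 2.08 TPM in siSCR and 1.70 TPM in siChd4, each with an interval that included 1 (0.966 to 1.32, 0.809 to 1.69 and 0.584 to 1.14).

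All 5 EphB receptors had ratios above 0, where 44.5% of all genes did, and 0 passed the limit. Ephb6, another kinase-dead receptor, measured 4.03 TPM in siSCR and 6.11 TPM in siChd4 (1.52-fold, 1.202 to 1.93) and Ephb1 12.4 TPM in siSCR and 15.3 TPM in siChd4 (1.24-fold, 1.09 to 1.40). Ephb3, the most abundant of them, was level at 22.9 TPM in siSCR and 23.0 TPM in siChd4 (1.01-fold, 0.909 to 1.11). Ephb2 had 5.41 TPM in siSCR and 5.99 TPM in siChd4 and Ephb4, the ephrin-B2 receptor of veins, 7.36 TPM in siSCR and 8.06 TPM in siChd4, with intervals of 0.978 to 1.26 and 0.920 to 1.30. Under the filter, Epha1, Epha6 and Epha8 lay between 0.11 and 0.45 TPM in either library, and of these 3 Epha6 had the largest count, 30.2 and 41.6 estimated counts (1.32-fold, 0.822 to 2.23).

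Of the 6 netrin receptors, 2 were higher, Dcc and Unc5d, and 0 lower, where 6.75% of all genes were higher and 4.47% lower. Dcc, the receptor through which netrin-1 attracts axons, measured 3.21 TPM in siSCR and 7.30 TPM in siChd4, a fold of 2.27 (1.97 to 2.64) from 260 and 626 estimated counts. Its relative Neo1, also a receptor for repulsive guidance molecules and far more abundant in these cells, measured 66.3 TPM in siSCR and 51.8 TPM in siChd4 (0.781-fold, 0.745 to 0.820). Of the Unc5 receptors, Unc5d, a marker of upper-layer cortical precursors, was higher at 1.96 TPM in siSCR and 3.54 TPM in siChd4 (1.81-fold, 1.46 to 2.23). Unc5a measured 6.95 TPM in siSCR and 9.33 TPM in siChd4 (1.34-fold, 1.12 to 1.61). For Unc5b, 6.09 TPM in siSCR and 6.10 TPM in siChd4, and Unc5c, 1.72 TPM in siSCR and 1.58 TPM in siChd4, the intervals included 1 (0.846 to 1.18 and 0.706 to 1.18).

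Of the netrins, Ntn1 and Ntn4 were abundant and 0 of 3 passed the limit. Ntn1, the floor plate and ventricular zone attractant, measured 80.6 TPM in siSCR and 60.0 TPM in siChd4, a fold of 0.745 (0.708 to 0.782), below its siSCR level beyond counting error but short of the limit. Ntn4, which binds laminins of the basement membrane, measured 90.4 TPM in siSCR and 89.0 TPM in siChd4 (0.985-fold, 0.921 to 1.05). Ntn3 measured 4.02 TPM in siSCR and 6.39 TPM in siChd4 (1.59-fold, 1.30 to 1.96) with a log2 ratio of 0.56. Ntn5, under the filter, had 1 and 5.99 estimated counts (5-fold, 0.608 to 230).

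Slits and Robos formed the family without a higher member, among only 4 with at least 1 TPM (6.75% of all genes were higher). Robo1, the Slit receptor of many migrating neurons, measured 13.6 TPM in siSCR and 7.93 TPM in siChd4, a fold of 0.584 (0.522 to 0.653) and a log2 ratio of -0.71, from 814 and 504 estimated counts, and 2.41% of all genes had a lower ratio. It was no longer past the limit on FPKM (-0.58) or with the length trend subtracted (-0.52). Its chromosomal neighbour Robo2, with 0 protein-coding genes between them, measured 14.2 TPM in siSCR and 13.3 TPM in siChd4 (0.938-fold, 0.857 to 1.03), and its log2 ratio of -0.09 became 0.13 with the length trend subtracted. Slit1, the main Slit of these cells, measured 15.1 TPM in siSCR and 12.8 TPM in siChd4 (0.848-fold, 0.760 to 0.946) and Slit2 1.19 TPM in siSCR and 1.06 TPM in siChd4 (0.891-fold, 0.656 to 1.204). Slit3 had 1 estimated count in siChd4 and 0 in siSCR, which gives no fold. Robo3, the commissural Robo, measured 0.39 TPM in siSCR and 0.41 TPM in siChd4 and Robo4, of endothelial cells, 0.55 TPM in siSCR and 0.56 TPM in siChd4, both under the filter.

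**Figure D3:**
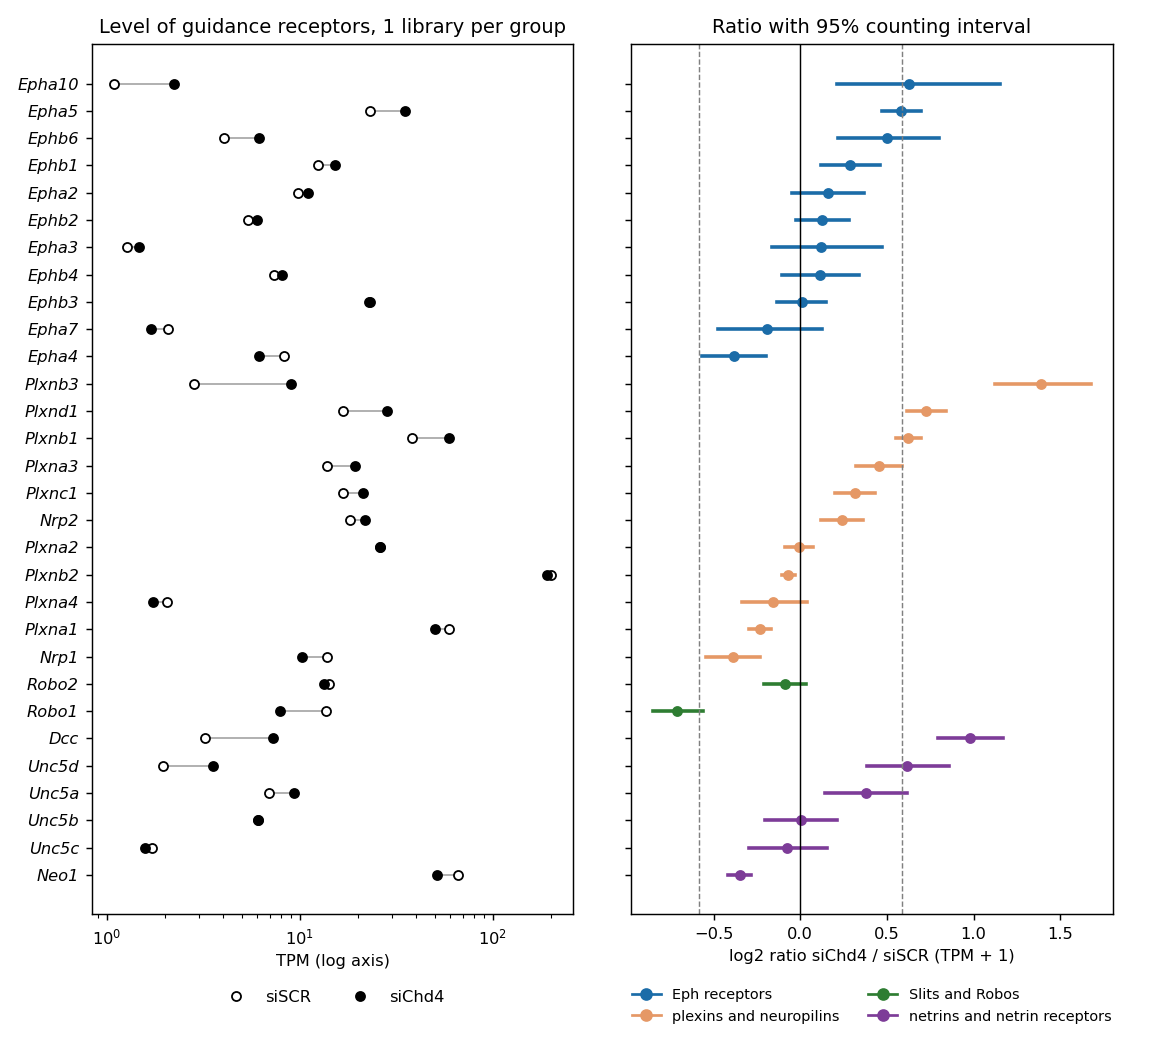
Left, TPM of each guidance receptor with a mean of at least 1 TPM in siSCR (open circle) and siChd4 (filled circle), 1 library each, on a log axis; right, its log2 ratio on TPM plus 1 with the 95% counting interval, dashed lines at 1.5-fold. Of the 30 receptors, 6 lie past the upper line and Robo1 alone past the lower, while Plxnb2, near 200 TPM, lies close to 0. Among all genes of that level, 6.75% were higher and 4.47% lower.

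Most members had long transcripts, though the ephrins with at least 1 TPM had a median of 2082 bases. The median length of the members, as implied by the deposited counts and FPKM, was 5218 bases, longer than 82.8% of all genes of that level (median 2938 bases), while the medians of a list of guidance effectors and a list of other cues and co-receptors were 4470 and 4890 bases. Longer members had lower ratios, with a Spearman rho of -0.38 over the 59 members and -0.18 over all 12882 genes, where all points come from the same pair of libraries. With the length trend of all genes subtracted, the members' median log2 ratio was 0.30 and 18 were higher, where 7.51% of all genes were higher. Of the members with at least 50 counts in both libraries, 0 had a transcript length that differed beyond 1.2 times from library to library.

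**Figure D4:**
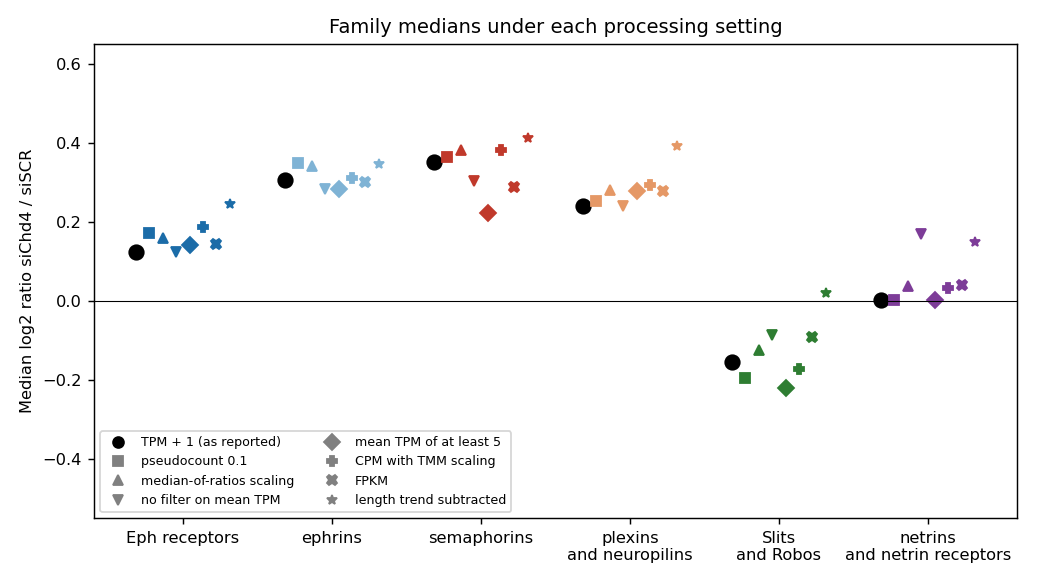
Median log2 ratio of siChd4 over siSCR in each of 6 guidance families (horizontal) under the reported measure (black circle) and 7 other ways of processing (coloured symbols). The ephrin, semaphorin, plexin and Eph medians stay above 0 under each, and the Slit and Robo median crosses 0 when the length trend is subtracted (0.02).

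Of the genes that act downstream of these receptors, most differed by less than 1.5-fold. Of 58 effectors listed, 56 had at least 1 TPM. Of these, 7 were higher (12.5%, against 6.75% of all genes) and 1 lower (1.79%, against 4.47%), with a median log2 ratio of -0.02. Crmp1, a collapsin response mediator that carries Sema3a signals to microtubules, measured 67.0 TPM in siSCR and 162 TPM in siChd4 (2.43-fold, 2.29 to 2.57). Pak3, a kinase activated by Rac and Cdc42 in neurons, measured 7.09 TPM in siSCR and 13.1 TPM in siChd4 (1.84-fold, 1.65 to 2.07), and Dpysl5, another collapsin response mediator, 16.4 TPM in siSCR and 27.9 TPM in siChd4 (1.70-fold, 1.55 to 1.87). The lower effector was Mical2, an actin-oxidising enzyme of the family that acts below plexins, at 18.4 TPM in siSCR and 11.2 TPM in siChd4 (0.610-fold, 0.548 to 0.679), and it was not past the limit on TMM-scaled CPM (-0.52), on FPKM (-0.56) or with the length trend subtracted (-0.53). The GTPases that most guidance receptors converge on were close to equal, as in Rac1 (510 TPM in siSCR and 500 TPM in siChd4) and Rhoa (520 TPM in siSCR and 542 TPM in siChd4), chosen here after their values were seen.

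A further list held 30 other cues and co-receptors, of which 27 had at least 1 TPM. Of these, 4 were higher (14.8%, against 6.75% of all genes) and 1 lower (3.70%, against 4.47%), with a median log2 ratio of -0.08. Omg, an oligodendrocyte-myelin glycoprotein that inhibits axon growth, measured 23.8 TPM in siSCR and 66.9 TPM in siChd4 (2.81-fold, 2.51 to 3.16). Ptprd, a synaptic receptor phosphatase, measured 5.85 TPM in siSCR and 11.1 TPM in siChd4 (1.90-fold, 1.69 to 2.14), and Cxcr4, the receptor for the chemokine Cxcl12, 7.01 TPM in siSCR and 12.4 TPM in siChd4 (1.77-fold, 1.37 to 2.29). The lower member was Met, the hepatocyte growth factor receptor and a plexin partner, at 1.76 TPM in siSCR and 0.44 TPM in siChd4 (0.25-fold, 0.152 to 0.394), and it was not past the limit on FPKM (-0.53). Met passed the level filter only through siSCR, the library in which it was high.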

How the data were processed

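Per the labels, total RNA of 2 transfected cultures was extracted with a commercial kit and sequenced after a standard library preparation. The deposited table gives FPKM, TPM and estimated counts per gene for each library, per the file headers. Per the submitters' processing notes the build was mm39. The aligner, counter, annotation and strand setting are not stated in the sources at hand. The deposited TPM values sum to 1000000 per library. Of the deposited estimated counts, 16.0% (siSCR) and 17.8% (siChd4) are whole numbers. A floor of 3 counts equals 0.151 and 0.149 CPM.

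The log2 ratio of siChd4 over siSCR was taken after adding a pseudocount of 1 to TPM, and was summarised for the 12882 genes that averaged at least 1 TPM. Exact Clopper-Pearson 95% intervals came from estimated counts rounded to whole numbers (scipy 1.17.1), which cover counting error only, since reads lacking molecular identifiers can be copies. The calculation was tested on simulated data. Transcript length was the ratio of estimated counts to FPKM, and its trend was fitted by lowess (statsmodels 0.14.6, span 0.3). TMM factors came from edgeR 4.0.16. Members, families and gene lists were chosen with earlier results of these data known. Named genes are Chd4, the members past 1.5-fold, the 2 most abundant members of each family, those next to the limit, the member with the largest count below the filter, and up to 3 genes per direction of each further list; the other members are given by their values. Promoter sequences and gene order were taken from RefSeq (GRCm38.p6) by Entrez number, and promoter entries of 1 chromosome were left out.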

Additional observations from a re-analysis of the deposited data

How the results depend on the processing

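The number of members at least 1.5-fold higher ranged from 12 on FPKM (5.60% of all genes higher) to 18 with the length trend subtracted (7.51% of all genes), and was 9 with a mean of at least 5 TPM (4.90% of all genes), where 46 members were counted, and 4 at a 2-fold limit (2.26% of all genes). Of members at least 1.5-fold lower there were 2 with a pseudocount of 0.1, 0 on FPKM, 0 with the length trend subtracted and 0 at a 2-fold limit, where 5.74%, 2.29%, 3.26% and 0.629% of all genes were lower. The median of all members stayed between 0.17 and 0.30. With the length trend subtracted, the median of plexins and neuropilins was 0.39 and that of Slits and Robos turned to 0.019. The other family medians stayed between the medians of their members' lower and upper counting bounds. That is a wide range and not the error of a median. Within it, the median of netrins and their receptors went from 0.002 to 0.17 when members under the level filter were kept. The log2 ratio of Chd4 was -0.14 when the length trend was removed, -0.23 from FPKM and -0.25 under median-of-ratios scaling. Of lower effectors there were 0 with TMM-scaled CPM, on FPKM or with the length trend subtracted, and of lower other cues 0 with a mean of at least 5 TPM or on FPKM. The cause of these differences was not tested, other than the fewer genes counted under a higher filter or limit. The 37 named genes other than Chd4 gave 185 values under other settings, of which 165 stayed within counting error, and 0 of those past the limit turned in sign. The 15 members past the limit stayed past it in 70 of 75 values. The 5 lost were Efna1, Epha10, Unc5d and Robo1 on FPKM, and Robo1 with the length trend subtracted. Epha5, just short of the limit as reported, passed it with a pseudocount of 0.1 (0.60), on FPKM (0.61) and under median-of-ratios scaling (0.62). It also passed on TMM-scaled CPM (0.64) and with the length trend subtracted (0.70). On FPKM, 1 was added to each value as on TPM. With a pseudocount of 0.1 on TPM, the log2 ratio was 1.09 for Efna1, 0.975 for Epha10, 0.82 for Unc5d and -0.77 for Robo1. Depth limits members under the floor of 3 counts, such as Slit3. Leaving out a library was not possible with 1 per group. No paired analysis was possible because there was 1 library per treatment.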
